A study of Mus musculus with 12 samples.

Results

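Interferon gamma (IFNγ) signals through a short chain of proteins, and the RNA of 9 genes of that chain was followed across 4 conditions of B16-F10 mouse melanoma cells. The genes were the receptor chains *Ifngr1* and *Ifngr2*, the kinases *Jak1* and *Jak2*, the transcription factors *Stat2* and *Stat3*, and the inhibitors *Socs1*, *Socs3* and *Ptpn2*. They were taken by name from a table of 23022 genes, and all 9 were listed. *Stat3* rose with IFNγ in both genotypes, *Stat2* passed the test in control cells, and *Ifngr2* was higher in knockout than in control cells with or without the cytokine. *Ptpn2* was lower in knockout cells under IFNγ, a call that was lost under 2 of the other scalings tried and changed sign under 1 of them. *Socs1*, too low for the main test, was higher in untreated knockout cells in a fit with no filter, and *Ifngr1*, *Jak1*, *Jak2* and *Socs3* passed no main test.

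The study asked whether MBNL proteins, which regulate RNA splicing, shape the response of tumor cells to IFNγ. All groups were B16-F10 cells expressing Cas9 from lentivirus, grown from 1 sorted Cas9 clone. NTC cells received a non-targeting guide, which the labels spell out as a no template control, and DKO cells received a guide pair against *Mbnl1* and *Mbnl2*. The knockout population was not cloned again, so edited and unedited alleles are mixed in it. Each genotype was left untreated or given IFNγ at 1 ng/mL for 24 h, with 3 libraries per group and 12 in all. The labels number the libraries but do not say whether they came from separate cultures, so p-values measure the spread between these libraries, which may be technical.

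IFNγ is released by activated T cells and natural killer cells. Its receptor is built from IFNGR1 chains, which bind the cytokine, and IFNGR2 chains, which complete the signaling complex. JAK1 is held by IFNGR1 and JAK2 by IFNGR2, and once brought together the kinases phosphorylate the receptor and then STAT proteins, which enter the nucleus as dimers and bind gamma-activated sites. STAT3 is the main mediator of interleukin 6 family cytokines and can also be activated by IFNγ, while STAT2 acts mostly in a complex with IRF9 downstream of type I interferons. SOCS1 and SOCS3 block JAK activity, and PTPN2 is a phosphatase that removes phosphate from JAKs and STATs. In melanoma cells this chain drives antigen presentation.

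Values are TPM, the share of each transcript scaled to a fixed total, which divide by transcript length and so allow levels to be compared between genes. The listed genes summed to 844185 to 874612 TPM in NTC and to 805782 to 827191 TPM in DKO libraries, so that every DKO library lay below every NTC library. The read depth behind a value is unknown because TPM do not keep it. As a check of the labels, *Mbnl1* covered 55.6 to 63.9 TPM in NTC and 41.1 to 47.5 TPM in DKO libraries, and *Mbnl2* 99.2 to 107.1 TPM and 83.9 to 98.0 TPM. All 7 melanocyte markers were well expressed, with summed levels from 16650 to 18640 TPM in NTC and from 11120 to 12410 TPM in DKO libraries. Of 13 markers of leukocytes, endothelium and epithelium, 12 were listed, 8 of these were at 0 in every library and only *Cd68*, also a lysosomal gene, was high enough to test. The summed level of these 12 was 1.99 to 3.60 TPM in NTC and 3.22 to 7.11 TPM in DKO libraries, highest in DKO cells with IFNγ. Scaling all libraries to a common total was run as an alternative, and its outcome is given below. The part of the other shifts in the results that follow was not tested. In bulk RNA, fewer cells that express a gene and less RNA per cell cannot be told apart.

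In untreated NTC cells the 9 genes covered a wide range of levels. *Jak1* was highest at 48.4 ± 0.741 TPM (SD, n = 3), and then came *Ptpn2* (32.0), *Ifngr2* (27.1), *Stat3* (23.7), *Ifngr1* (17.9), *Jak2* (11.9), *Stat2* (3.66), *Socs3* (2.09) and *Socs1* (0.452), each a mean in TPM. No neighbors in that order had overlapping ranges over the 3 libraries. The receptor, kinases, *Stat3* and *Ptpn2* were thus expressed without any cytokine, whereas both SOCS genes were close to the lower end of what was measured. With IFNγ, *Stat3* moved above *Ifngr2* in NTC cells, although their ranges overlapped. In untreated DKO cells, *Ifngr2* was at the second place, above *Ptpn2*, and again no neighbors overlapped. In DKO cells with IFNγ, *Stat3* and *Ptpn2* came after *Ifngr2* with overlapping ranges, and *Jak1* was first in every group.

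**Figure D1:**
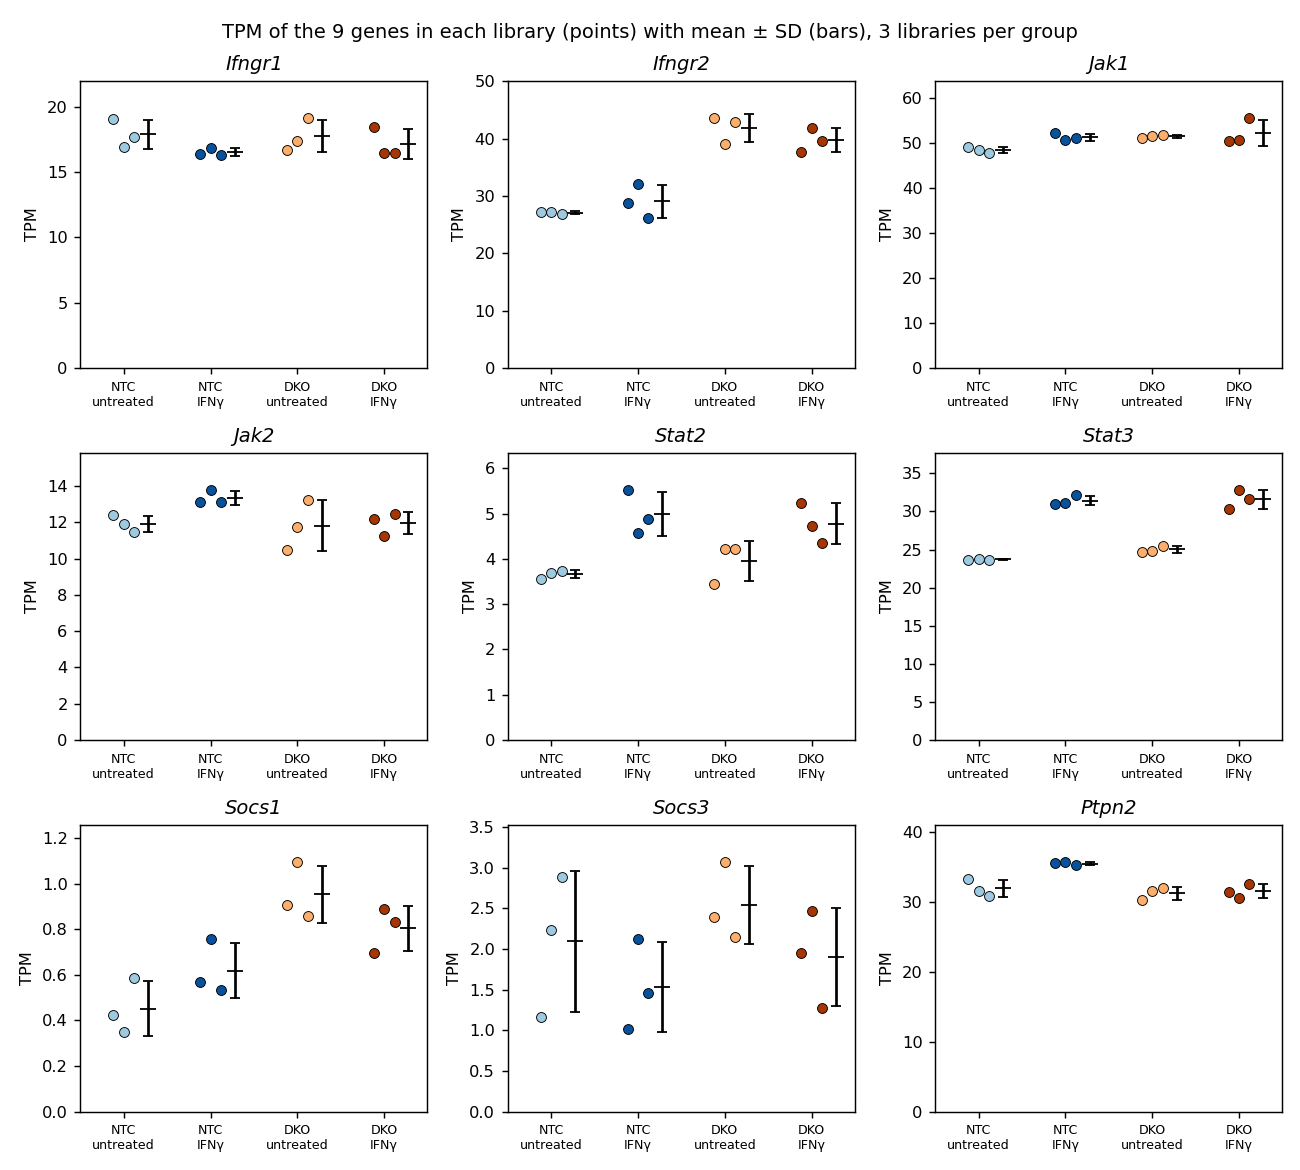
TPM of the 9 genes (vertical axes, linear and starting at 0, scaled per gene) in NTC and DKO libraries without and with IFNγ; points are libraries and bars are mean ± SD of 3 libraries. *Stat3* libraries with IFNγ sit above those without in both genotypes, and *Ifngr2* points of DKO cells, from 37.7 to 43.5 TPM, all lie above those of NTC cells.

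*Ifngr1*, which encodes the ligand-binding chain, lies on chromosome 10 (chr10:19591949-19610229, plus strand, in the GENCODE M21 annotation of GRCm38). NTC libraries gave 19.1, 16.9 and 17.7 TPM without IFNγ and 16.4, 16.9 and 16.3 TPM with it. Every treated library was below every untreated one, but narrowly, with 16.87 TPM treated beside 16.90 TPM untreated at the closest. The difference of −0.11 (95% interval −0.25 to 0.04) did not pass the test (adjusted p = 0.30). DKO libraries held 16.7, 17.4 and 19.1 TPM of *Ifngr1* without IFNγ and 18.5, 16.5 and 16.5 TPM with it, so that the 4 groups of this gene largely covered the same range. This and all following differences are on the log2(TPM + 1) scale, tested with limma across 11663 genes, with Benjamini-Hochberg adjusted p-values called under 0.05.

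*Ifngr2*, the chain that brings JAK2 into the complex, lies on chromosome 16 (chr16:91547072-91565623, plus strand). Untreated NTC libraries held 27.3, 27.2 and 26.9 TPM, and untreated DKO libraries held 43.5, 39.0 and 42.8 TPM. The groups were far apart relative to their spread, with a mean ratio of 1.54 and a log2 difference of 0.60 (SE 0.0688, 95% interval 0.46 to 0.75, adjusted p = 1.88e-05). With IFNγ, *Ifngr2* was at 28.8, 32.1 and 26.2 TPM in NTC and at 37.7, 41.8 and 39.6 TPM in DKO libraries. Again no DKO library overlapped with an NTC library, and the log2 difference was 0.44 (SE 0.0688, adjusted p = 0.000222), a mean ratio of 1.37. Both calls were kept in each of 12 fits that left out 1 library and under all 7 other settings. IFNγ itself moved *Ifngr2* by 0.09 in NTC (adjusted p = 0.381) and by −0.07 in DKO cells (adjusted p = 0.798), and neither passed the test.

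Because 1 receptor chain differed between genotypes and the other did not pass, the ratio of their TPM was taken within each library, as a description with no test. *Ifngr2* over *Ifngr1* was 1.43, 1.61 and 1.52 in untreated NTC libraries and 2.60, 2.24 and 2.24 in untreated DKO libraries. With IFNγ it was 1.76, 1.90 and 1.61 in NTC and 2.04, 2.54 and 2.41 in DKO libraries. All 6 DKO ratios were thus above all 6 NTC ratios. *Jak2* over *Jak1* had geometric means of 0.246 in untreated NTC, 0.260 in treated NTC, 0.228 in untreated DKO and 0.229 in treated DKO cells. With IFNγ this ratio did not overlap between genotypes, at 0.2523 to 0.2722 in NTC and 0.2223 to 0.2419 in DKO libraries. Untreated NTC libraries, at 0.2402 to 0.2518, lay narrowly below the treated NTC ones. The untreated genotypes overlapped. The ratio of *Stat2* to *Stat3* stayed between geometric means of 0.151 and 0.158 over the 4 groups, whose ranges overlapped.

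**Figure D2:**
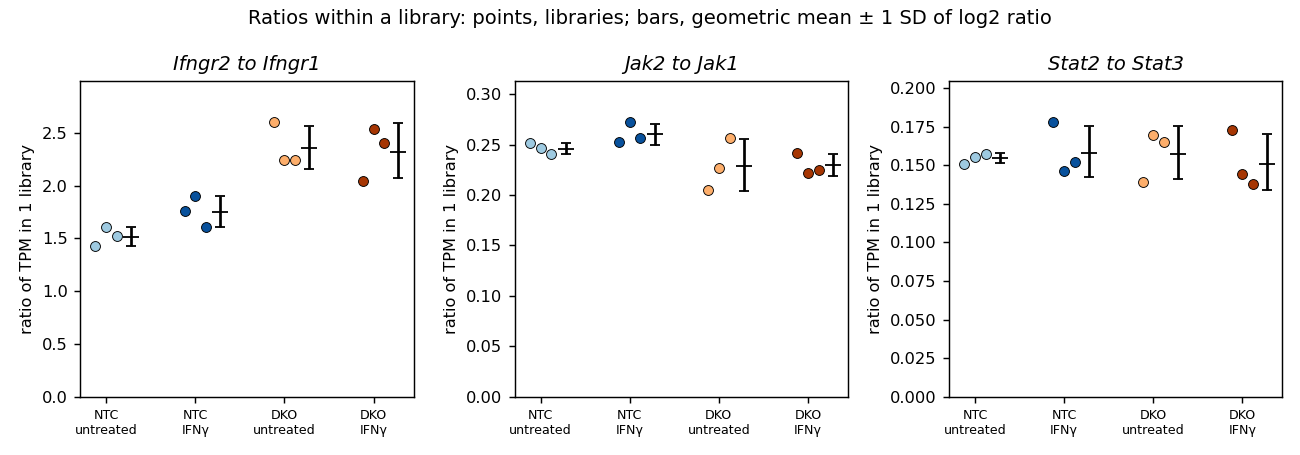
Ratios of TPM within a library (vertical axes, linear and starting at 0) for 3 pairs of genes in the 4 groups; points are libraries and bars are the geometric mean ± 1 SD of the log2 ratio, n = 3. The ratio of *Ifngr2* to *Ifngr1* lies between 1.43 and 1.90 in NTC and between 2.04 and 2.60 in DKO libraries. That of *Jak2* to *Jak1* lies between 0.252 and 0.272 in treated NTC and between 0.222 and 0.242 in treated DKO libraries. For *Stat2* to *Stat3* the groups overlap.

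The kinase genes *Jak1* (chr4:101152367-101265282, minus strand) and *Jak2* (chr19:29251828-29313080, plus strand) passed no test. NTC libraries gave 49.2, 48.3 and 47.7 TPM of *Jak1* without IFNγ and 52.1, 50.6 and 51.1 TPM with it. DKO libraries held 51.1, 51.6 and 51.8 TPM of *Jak1* untreated and 50.3, 50.7 and 55.4 TPM treated. The untreated NTC libraries were therefore below the other 9 for *Jak1*, by a log2 difference of 0.08 against treated NTC (adjusted p = 0.223) and 0.09 against untreated DKO cells (adjusted p = 0.144). The second of these passed after scaling all libraries to 1 common total (0.14, adjusted p = 0.0239).

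In NTC cells *Jak2* was at 12.4, 11.9 and 11.5 TPM without and 13.2, 13.8 and 13.1 TPM with IFNγ, a log2 difference of 0.15 (95% interval −0.01 to 0.32, adjusted p = 0.191). In DKO cells it was at 10.5, 11.7 and 13.3 TPM without and 12.2, 11.3 and 12.4 TPM with IFNγ. The treated DKO libraries all lay below the treated NTC libraries for *Jak2*, with a difference of −0.15 that did not pass (95% interval −0.31 to 0.02, adjusted p = 0.139). With GC content and length corrected, these *Jak2* differences shrank to 0.056 with IFNγ in NTC cells (adjusted p = 0.675) and to −0.072 between treated genotypes (adjusted p = 0.404), and that of *Jak1* with IFNγ in NTC cells to 0.032 (adjusted p = 0.677).

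*Stat3* (chr11:100885098-100939540, minus strand) responded to IFNγ in both genotypes. It rose from 23.6, 23.8 and 23.7 TPM to 31.0, 31.1 and 32.1 TPM in NTC cells. In DKO cells it rose from 24.7, 24.9 and 25.5 TPM to 30.4, 32.8 and 31.6 TPM. In either genotype the treated libraries were clear of the untreated ones. The log2 difference was 0.39 in NTC (SE 0.0456, 95% interval 0.29 to 0.49, adjusted p = 0.000168) and 0.32 in DKO cells (SE 0.0456, 95% interval 0.23 to 0.42, adjusted p = 0.0017). As ratios of mean TPM these were 1.33 and 1.26. Both *Stat3* calls were kept in the 12 fits without 1 library and under the 7 other settings. Between genotypes, *Stat3* differed by 0.08 untreated (adjusted p = 0.218) and 0.0059 with IFNγ (adjusted p = 0.929), and neither passed. *Stat3* and *Stat5a* overlap on opposite strands over 72 bases, where reads of unstranded libraries are not separated, and *Stat5a* ran from 9.04 to 13.6 TPM with no call in any comparison.

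*Stat2* (chr10:128270559-128292849, plus strand) was expressed at a geometric mean of 0.155 times the TPM of *Stat3* in untreated NTC cells. The NTC values were 3.56, 3.70 and 3.73 TPM untreated, against 5.52, 4.56 and 4.88 TPM treated. These groups did not overlap, and *Stat2* rose by 0.36 (SE 0.0953, 95% interval 0.15 to 0.56, adjusted p = 0.0309), a ratio of mean TPM of 1.36. The call was narrow. It was lost when any one of the 6 NTC libraries was left out, with adjusted p-values from 0.0555 to 0.0853 and log2 differences from 0.30 to 0.41, and with a replicate block (adjusted p = 0.0507). In DKO cells *Stat2* was at 3.44, 4.22 and 4.21 TPM without and 5.25, 4.74 and 4.35 TPM with IFNγ. The treated libraries again lay above the untreated ones, by 0.22 (95% interval 0.02 to 0.43), but the adjusted p was 0.473.

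The 250 bases before the RefSeq gene start (GRCm38.p6) are shown for *Stat2* and *Stat3*, the STAT genes of the group that passed a test with IFNγ, written along the coding strand. They were searched for the gamma-activated site TTCNNNGAA, which reads the same on both strands, and, on either strand, for a pair of GAAA separated by any 2 bases, the core that complexes of STAT2 with IRF9 and other IRF proteins bind. The first was present in 7.02% and the second in 2.98% of 32851 mouse promoter windows of that length. Capitals mark the match, which begins 222 bases before the start of *Stat2* and is the reverse strand form of the second motif, while *Stat3* had no match to either motif in this window. A match is a string of letters and no evidence of binding.
*Stat2*, chr10:128270248-128270497, plus strand: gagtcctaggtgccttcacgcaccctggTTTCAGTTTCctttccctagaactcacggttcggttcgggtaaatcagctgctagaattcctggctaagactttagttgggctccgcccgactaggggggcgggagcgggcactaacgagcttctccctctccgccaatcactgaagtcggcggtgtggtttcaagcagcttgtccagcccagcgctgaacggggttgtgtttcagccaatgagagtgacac
*Stat3*, chr11:100939541-100939790, minus strand: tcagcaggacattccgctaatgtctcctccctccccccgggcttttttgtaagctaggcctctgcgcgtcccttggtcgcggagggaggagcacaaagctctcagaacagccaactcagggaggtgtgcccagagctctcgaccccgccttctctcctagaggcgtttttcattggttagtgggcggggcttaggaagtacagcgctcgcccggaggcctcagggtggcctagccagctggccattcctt

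Of the inhibitors, *Ptpn2* (chromosome 18, minus strand), encoding the phosphatase, was the most abundant. Its NTC libraries gave 33.4, 31.6 and 30.9 TPM without and 35.6, 35.7 and 35.3 TPM with IFNγ, with no overlap. The log2 difference of 0.15 (95% interval 0.05 to 0.25) missed the threshold (adjusted p = 0.0554), and it passed without untreated NTC replicate 1 (adjusted p = 0.0499), treated DKO replicate 2 (0.0421) or treated DKO replicate 3 (0.0425). With GC content and length corrected, it was 0.015 (adjusted p = 0.877). In DKO cells *Ptpn2* was at 30.2, 31.6 and 32.0 TPM untreated and at 31.5, 30.6 and 32.7 TPM treated, a difference of 0.01 (adjusted p = 0.965). With IFNγ, *Ptpn2* was lower in DKO than in NTC cells by −0.17 (SE 0.0472, adjusted p = 0.0122), and no libraries overlapped, but the sign turned to 0.0020 (adjusted p = 0.973) once the dependence of each library on the GC content and length of genes was removed. The call was also lost after scaling to a common total (−0.08, adjusted p = 0.157).

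*Socs1* (chr16:10782240-10785536, minus strand), an inhibitor that IFNγ is known to induce, was under the filter of 1 TPM in 3 libraries, since only 1 library reached 1 TPM. NTC libraries gave 0.423, 0.350 and 0.584 TPM without IFNγ and, overlapping with these, 0.567, 0.756 and 0.532 TPM with it. Untreated DKO libraries held 0.906, 1.09 and 0.859 TPM, and treated ones 0.695, 0.887 and 0.831 TPM. Without IFNγ, every DKO library was above every NTC library, with a ratio of mean TPM of 2.11 and p = 0.1 in an exact two-sided permutation test, the smallest that 3 against 3 libraries allow. In a fit with no filter on low values, *Socs1* was higher in untreated DKO cells by 0.43 (SE 0.0885, adjusted p = 0.00408), a difference that depends on the pseudocount and was 0.95 with 0.1 TPM added in place of 1. The same fit gave no call for *Socs1* with IFNγ in NTC (0.16, adjusted p = 0.31) or DKO cells (−0.11, adjusted p = 0.771), nor between genotypes with IFNγ (0.16, adjusted p = 0.215). Levels under 1 TPM rest on few reads, and how many cannot be read from TPM.

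The promoter window of *Socs1* is shown because it held the second motif in a pair of overlapping copies, GAAAGAGAAA and GAAACCGAAA, beginning 83 and 77 bases before the start and marked in capitals as 1 run.
*Socs1*, chr16:10785537-10785786, minus strand: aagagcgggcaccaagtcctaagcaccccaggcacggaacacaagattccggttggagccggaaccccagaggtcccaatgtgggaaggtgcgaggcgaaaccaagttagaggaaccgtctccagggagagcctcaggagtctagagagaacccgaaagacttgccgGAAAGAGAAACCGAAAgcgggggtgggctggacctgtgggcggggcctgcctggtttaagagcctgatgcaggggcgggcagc
The window of *Socs3* held 1 gamma-activated site, TTCTTAGAA, beginning 154 bases before its RefSeq start. This window lies inside the GENCODE span of *Socs3*, which begins further upstream. The windows of *Socs3* and *Jak1* each overlap a GENCODE exon of their own gene. No match to either motif was found for *Ifngr1*, *Ifngr2*, *Jak1* or *Jak2*, which says only that these letters are not in their windows. The table of promoters had an entry for 8 of the 9 genes, all but *Ptpn2*.

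*Socs3* (chr11:117966079-117970047, minus strand), which is induced by STAT3 in many cells, varied widely between libraries, with an SD of 0.867 TPM in untreated NTC cells. The NTC values were 1.17, 2.23 and 2.88 TPM untreated, against 1.02, 2.12 and 1.45 TPM treated. DKO libraries held 2.40, 3.07 and 2.14 TPM untreated and 1.95, 2.47 and 1.27 TPM treated. The groups overlapped in every comparison. With IFNγ the *Socs3* difference was −0.27 in NTC (95% interval −0.75 to 0.21, adjusted p = 0.427) and −0.30 in DKO cells (95% interval −0.78 to 0.18, adjusted p = 0.727). With 3 libraries per group, changes within these bounds could not be told from 0.

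Counted over the 8 genes that passed the filter, IFNγ called 2 in NTC cells, *Stat2* and *Stat3*, both higher, where 7.31% of all tested genes were called higher, 4.78% lower and 12.1% in either direction. In DKO cells it called *Stat3* alone, against 0.677% higher, 0.103% lower and 0.78% in either direction over all genes. Between genotypes, *Ifngr2* was the 1 call of 8 in untreated cells, where 36.4% of all genes were called, 17.0% higher and 19.4% lower. With IFNγ, *Ifngr2* (higher) and *Ptpn2* (lower) were called, against 43.3% of all genes, 19.5% higher and 23.9% lower.

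Libraries of the compared groups did not overlap for 6 of 8 genes with IFNγ in NTC cells, where 36.6% of all tested genes showed no overlap. The 6 were *Ifngr1* (lower, by the narrow margin given above) and *Jak1*, *Jak2*, *Stat2*, *Stat3* and *Ptpn2* (higher). In DKO cells the lack of overlap held for *Stat2* and *Stat3*, 2 of 8, against 14.7%. Between genotypes it held for 3 of 8 without IFNγ (*Ifngr2*, *Jak1* and *Stat3*, all higher in DKO cells) against 51.6%, and for 3 of 8 with IFNγ (*Ifngr2*, *Jak2* and *Ptpn2*) against 49.9%. The median log2 difference of the 8 genes with IFNγ was 0.12 in NTC and 0.01 in DKO cells, beside 0.02 and 0.0081 over all genes. For DKO against NTC the medians were 0.08 untreated and 0.01 treated, beside −0.0055 and −0.01 over all genes.

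Whether the response to IFNγ differed between genotypes was tested as a difference of differences. None of the 8 genes was called by limma, where 0.0343% of all genes were (0.00857% higher and 0.0257% lower), and none had an unadjusted p-value under 0.05. The estimates for DKO minus NTC were −0.16 for *Ifngr2* (95% interval −0.37 to 0.05), −0.14 for *Ptpn2* (−0.28 to 0.0082), −0.14 for *Stat2* (−0.43 to 0.16), −0.13 for *Jak2* (−0.36 to 0.10), −0.07 for *Stat3* (−0.21 to 0.07), −0.07 for *Jak1* (−0.20 to 0.07), −0.03 for *Socs3* (−0.70 to 0.64) and 0.06 for *Ifngr1* (−0.15 to 0.26). With GC content and length corrected, the estimate was −0.010 for *Ptpn2* and −0.13 for *Stat3*, the latter with an unadjusted p of 0.0403 (adjusted p = 0.624 in limma). For *Stat3*, the interval of the uncorrected estimate leaves room for a DKO response weaker by up to 0.21 or stronger by up to 0.07. *Stat2*, called in NTC and not in DKO cells, was thus not shown to respond differently between them.

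**Figure D3:**
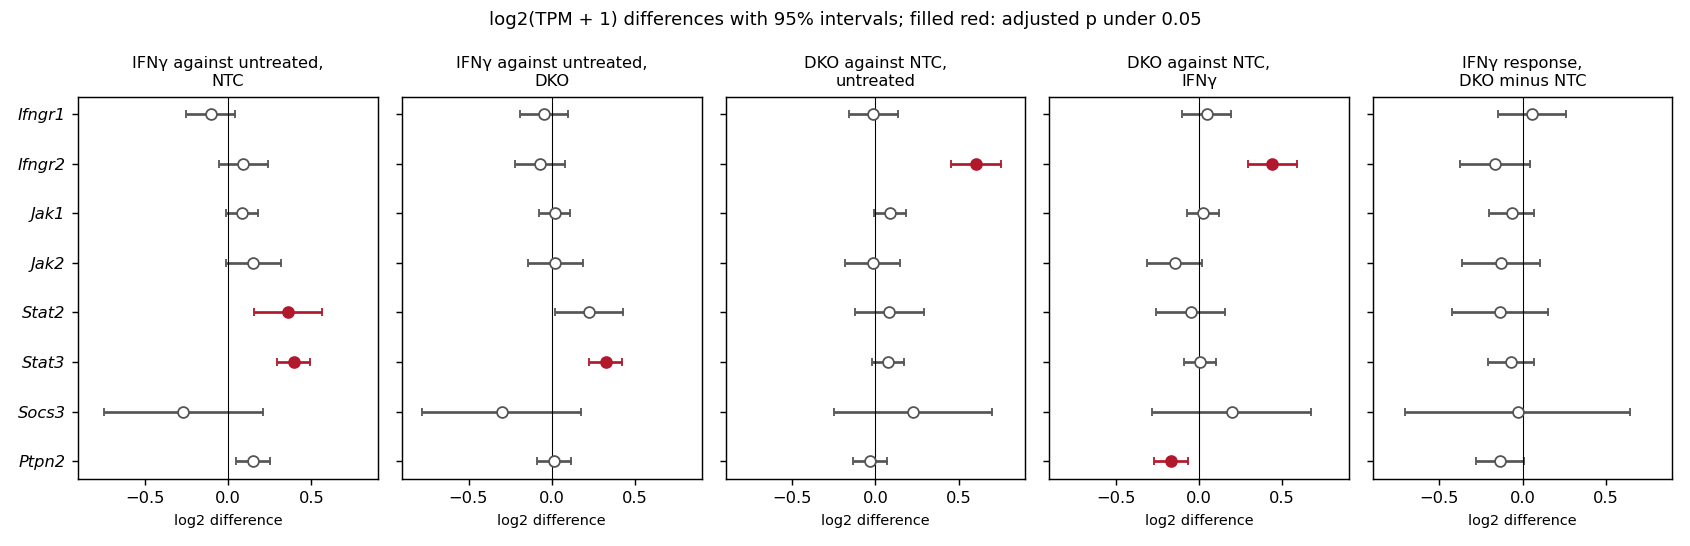
Differences in log2(TPM + 1) of the 8 tested genes (horizontal axes) with 95% intervals from limma, in 5 comparisons; filled red points have an adjusted p under 0.05. Red are *Stat2* and *Stat3* with IFNγ in NTC cells, *Stat3* in DKO cells, *Ifngr2* between genotypes at either treatment and *Ptpn2* between genotypes with IFNγ, whose sign turned with GC content and length corrected; no gene is red in the panel of response differences.

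The rest of the pathway was described from lists of known genes. Calls on these lists come from the main test. Apart from the response difference of *Psmb9*, given below, whether they hold under the other scalings and settings was not tested. Of the JAK and STAT genes *Jak3*, *Tyk2*, *Stat4*, *Stat5a*, *Stat5b* and *Stat6*, 5 were tested, *Stat4* being listed at 0 in 11 of 12 libraries. With IFNγ, limma called 0 of these 5 in NTC cells, with log2 differences from −0.11 to 0.13 and 1 gene at an unadjusted p-value under 0.05. In DKO cells it called 0 as well, with differences from −0.05 to 0.06 and 0 genes at that unadjusted level. Between genotypes, *Stat6*, which carries interleukin 4 signals, was lower in DKO cells with IFNγ (−0.17, adjusted p = 0.0149). In untreated cells 0 of the 5 were called (3 at an unadjusted p-value under 0.05). Over all tested genes, 43.3% were called between genotypes with IFNγ and 36.4% without.

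Other inhibitors of the pathway, among them the remaining SOCS genes, PIAS proteins and phosphatases, gave 0 calls of 15 tested with IFNγ in either genotype, where limma had 1 gene at an unadjusted p-value under 0.05 in each. *Usp18*, which restrains type I interferon signaling, was under the filter with values from 0.350 to 1.28 TPM. *Cish* and *Socs2*, both feedback inhibitors known from STAT5 signaling, were higher in untreated DKO than in untreated NTC cells. *Cish* had means of 3.12 TPM in NTC and 4.30 TPM in DKO cells (log2 difference 0.35, adjusted p = 0.022). *Socs2* had means of 3.82 TPM in NTC and 4.98 TPM in DKO cells (0.31, adjusted p = 0.0327). With IFNγ, *Socs2* (0.39, adjusted p = 0.00812) and *Sh2b3* (0.29, adjusted p = 0.0107), which encodes an adaptor that binds JAK2, were higher and *Socs4* (−0.25, adjusted p = 0.0164) was lower in DKO cells. The median of the 15 was 0.08 between genotypes without and with IFNγ. Of the 15, 2 were called higher and 0 lower untreated, where 36.4% of all tested genes were called in either direction. With IFNγ, 2 were higher and 1 lower, against 43.3% of all tested genes.

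Of 12 other receptor chains that use JAKs, 7 were tested. DKO cells had 3 of them higher and 2 lower than NTC cells untreated, and 2 higher and 2 lower with IFNγ. Over all tested genes, 17.0% were called higher and 19.4% lower untreated (36.4% in either direction). With IFNγ, 19.5% were called higher and 23.9% lower (43.3% in either direction). *Osmr*, the oncostatin M receptor chain, went from a mean of 2.48 TPM in NTC to 0.626 TPM in DKO cells untreated (log2 difference −1.10, adjusted p = 9.35e-06), and it was lower by −1.42 with IFNγ. It was also the 1 chain that rose with IFNγ in NTC cells (0.39, adjusted p = 0.0429). *Il13ra1*, a chain of the interleukin 13 receptor, was higher in DKO cells (0.74 untreated and 0.93 treated), as was *Il10rb* (0.21 and 0.14), which lies next to the interferon receptor genes, whereas *Ifnar2*, a type I interferon receptor chain, was lower (−0.34 and −0.51). Whether the counts among the 7 chains depart from the shares over all tested genes was not tested. Like *Il13ra1* and *Il10rb*, *Ifngr2* was higher in DKO cells, while *Osmr* and *Ifnar2* were lower.

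Downstream, 8 of 12 known IFNγ target genes were tested and 6 rose in each genotype. Over all tested genes, 7.31% were called higher in NTC and 0.677% in DKO cells. In NTC cells *Tap1* rose by 2.66, *Gbp2* by 2.83, *Psmb9* by 2.55 and *Nlrc5* by 2.31. In DKO cells *Gbp2* rose by 2.55, *Nlrc5* by 2.01, *Tap1* by 1.79 and *Irf1* by 0.93. Mean TPM in NTC cells went from 0.0801 to 4.37 for *Nlrc5* and from 1.97 to 20.1 for *Gbp2*. The 1 TPM added before the log understates a change from so low a level as that of *Nlrc5*. The median over the 8 was 1.80 in NTC and 1.21 in DKO cells. The response difference was called for 1 of the 8 (lower), against 0.0343% of all tested genes. Untreated DKO cells had 4 of the 8 called higher and 1 lower than NTC cells, and treated ones 2 higher and 3 lower. *Irf1* was higher in DKO cells by 0.53 untreated and 0.33 treated. With IFNγ, *Psmb9* (−1.14) and *Tap1* (−0.57) were lower in DKO cells. *Tap1* and *Psmb9* overlap on opposite strands, which unstranded reads do not separate. Of 9 tested genes that STAT3 is known to drive, 2 rose (*Hif1a* and *Mcl1*, both 0.22) and 4 fell with IFNγ in NTC cells, among them *Cebpb* (−1.22) and *Vegfa* (−0.25), and 0 passed in DKO cells, where *Stat3* itself rose and 3 of the 9 had an unadjusted p-value under 0.05. Between genotypes, untreated DKO cells had 2 of the 9 higher and 3 lower, and treated ones 1 higher and 3 lower. Over all tested genes, 4.78% were called lower with IFNγ in NTC cells, beside the 7.31% higher. Between genotypes, 36.4% of all tested genes were called untreated and 43.3% with IFNγ.

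**Figure D4:**
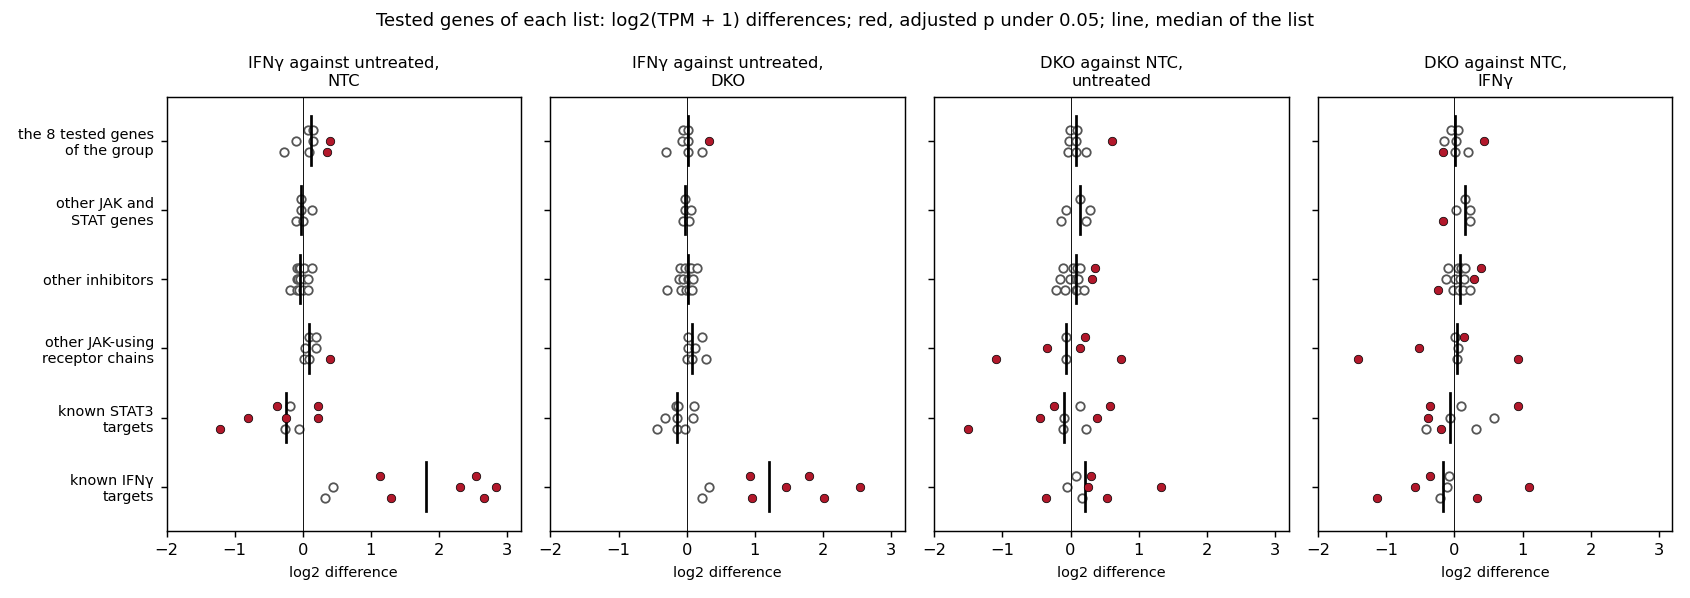
Differences in log2(TPM + 1) of the tested genes of 6 lists (horizontal axes) in 4 comparisons; each point is a gene, red points have an adjusted p under 0.05 in limma, and the vertical bar is the median of the list. With IFNγ the known IFNγ targets lie to the right in both genotypes, the 5 further JAK and STAT genes plotted have no red point with IFNγ, and the 8 tested genes of the receptor chain and its inhibitors lie between −0.30 and 0.39.

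The tested genes whose log2(TPM + 1) followed a member most closely over the 12 libraries were listed by Pearson's r, as a description without a test, since the points share libraries and groups. For *Stat3* these were *Tapbp* (0.985), *Psmb10* (0.984) and *Lgals3bp* (0.983), and for *Ifngr2* they were *Herc3* (0.984), *Tagln2* (0.98) and *Pcdhb5* (0.975). For *Ptpn2* they were *Cwc22* (0.974), *Srp54a* (0.973) and *Atp1b3* (0.969), and for *Stat2* *Dscr3* (0.911), *Uba7* (0.908) and *Nedd8* (0.904). *Jak1* was closest to *N6amt2* (0.953), *Supt16h* (0.948) and *Gyk* (0.941), and *Jak2* to *Pafah1b1* (0.908), *Ttc1* (0.9) and *Txndc9* (0.896). *Ifngr1* reached 0.865 with *Enpp6*, 0.791 with *Trim7* and 0.771 with *Zc3h10*, and *Socs3* 0.84 with *Bach2*, 0.838 with *Gngt2* and 0.82 with *Terf2ip*.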

How the data were processed

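RNA-seq of 12 poly(A)-selected, unstranded libraries was used. By the study's methods, the authors ran RSEM 1.2.4 with Bowtie, and TopHat in a version written there as 20.8b. For the mouse libraries the build is mm10 (GRCm38). The unit the authors deposited is TPM, taken from their RSEM estimates, although the name says counts. TPM keep no depth, the scaling between libraries is not given in the sources used here, and precision was taken from the spread between the 3 libraries of a group.

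A linear model of log2(TPM + 1) over all 12 libraries, with 1 mean per group and a prior variance following mean expression, was made with limma 3.58.1 (R 4.3.3) for the 11663 of 23022 genes that reached 1 TPM in 3 or more libraries. Benjamini-Hochberg adjustment ran over all tested genes, with a threshold of 0.05. Of the 9 members, 8 passed this filter. The 5 comparisons were IFNγ against untreated in each genotype, the difference of these responses, and DKO against NTC at each treatment. On this scale the change of a gene near 1 TPM is understated. The fit was tested on simulated data.

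The members, the lists of known genes and the tests were chosen with earlier results of these data known, and 1 gene related to the members is not reported here. All members were named, together with up to 4 called genes per list and comparison in order of adjusted p, 3 genes most like each member by Pearson's r, overlapping genes, and listed JAK, STAT or inhibitor genes under the filter. Alternatives were a pseudocount of 0.1, no filter, a replicate block, a common total for all libraries, median-ratio scaling, a correction for GC content and gene length, only the libraries of a comparison, and leaving out each library. Gene positions came from GENCODE M21, in which 22251 listed genes were found, and promoter sequences from RefSeq (GRCm38.p6). Tables were made with pandas 2.3.3 and numpy 2.4.6 under Python 3.11.15, exact tests with scipy 1.17.1 and figures with matplotlib 3.10.9.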

Additional observations from a re-analysis of the deposited data

Results flagged for a closer look

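The IFNγ response of *Psmb9*, an immunoproteasome subunit gene on the list of IFNγ targets, differed between genotypes by −1.09 on the log2 scale (SE 0.157, adjusted p = 0.0256 in limma), DKO minus NTC. It stood at 12.5, 12.1 and 9.83 TPM in treated NTC and at 5.35, 4.56 and 4.04 TPM in treated DKO libraries, with untreated means of 1.12 and 1.05 TPM. The call was lost in 11 of 12 fits with 1 library left out, all but that without treated NTC replicate 3 (adjusted p = 0.0490). Over these 12 fits the difference ran from −1.19 to −1.01 and the adjusted p up to 0.110. It was also lost with a pseudocount of 0.1 (−1.19, adjusted p = 0.0786). None of the 9 genes of the receptor chain, its STATs and its inhibitors met such a test, and in groups of 3 libraries no test for a single library far from the others was made.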

How the results depend on the processing

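The calls of *Stat3* and *Ifngr2* were kept under every alternative run. With IFNγ in NTC cells, 2 of 8 members were called, against 1 with a replicate block and 1 to 3 with 1 library left out. For DKO against NTC untreated, 1 was called, against 2 with no filter (adding *Socs1*) and 2 after scaling to the same total (adding *Jak1*). With IFNγ, 2 were called, against 1 with the same total and 1 with GC content and length corrected (both losing *Ptpn2*). The count for the response difference was 0 under every alternative, and the cause of these shifts was not tested.

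Values not called in the fit as reported also changed sign. With the same total, DKO against NTC untreated became 0.036 for *Ifngr1*, 0.030 for *Jak2* and 0.019 for *Ptpn2*, and DKO against NTC with IFNγ became 0.021 for *Stat2*. With GC content and length corrected, DKO against NTC untreated became 0.016 for *Ifngr1* and 0.012 for *Ptpn2*, IFNγ in DKO cells became −0.011 for *Jak1* and −0.0091 for *Jak2*, and DKO against NTC with IFNγ became −0.073 for *Stat3*. The called value of *Ptpn2* for DKO against NTC with IFNγ turned to 0.0020 there and lost its call. With 1 library left out, IFNγ in DKO cells ran from −0.10 to 0.0034 for *Ifngr1*, from −0.027 to 0.041 for *Jak1*, from −0.057 to 0.10 for *Jak2* and from −0.011 to 0.034 for *Ptpn2*. DKO against NTC untreated ran from −0.063 to 0.034 for *Ifngr1*, from −0.097 to 0.061 for *Jak2* and from −0.011 to 0.41 for *Socs3*. DKO against NTC with IFNγ ran from −0.0061 to 0.072 for *Ifngr1*, from −0.021 to 0.046 for *Jak1*, from −0.11 to 0.012 for *Stat2* and from −0.021 to 0.033 for *Stat3*, and the response difference of *Socs3* from −0.21 to 0.21.

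No pairing of libraries by replicate number was seen, but 3 libraries per group cannot show that there was none. Of 18 pairs with the same number, 4 had deviations correlated above 0.1 (range −0.179 to 0.182), and 2 of 12 libraries correlated best with their own number. The replicate block changed 1 member's call, that of *Stat2*. Over all genes, the IFNγ count in NTC cells was 1411, against 897 with no filter, 524 with GC content and length corrected and 317 to 2023 with 1 library left out, and the response difference was 4, against 10 with no filter, 2 with the block and 0 to 7 with 1 library left out. The split of higher and lower calls was 853 and 558 with IFNγ in NTC cells, against 525 and 639 with the same total and 606 and 637 with median-ratio scaling. For DKO against NTC it was 1982 and 2265 untreated and 2271 and 2782 treated, against 2652 and 1722, and 3278 and 1746, with the same total. TPM give no depth, so the reads behind *Socs1*, *Socs3* and *Stat2* are unknown.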

Other observations

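*Ifngr2* lies in a cluster of cytokine receptor genes on chromosome 16, and after its difference between genotypes had been seen, the 6 nearest tested genes on either side were read as well. In untreated cells, 6 of these 12 neighbors were higher and 3 lower in DKO than in NTC cells, and with IFNγ 4 were higher and 4 lower, where 36.4% and 43.3% of all tested genes were called in either direction. *Tmem50b*, the next gene downstream, was higher in DKO cells by 0.44 untreated (SE 0.0851, adjusted p = 0.0012) and 0.49 treated. *Gart*, a purine synthesis gene, was higher by 0.35 and 0.40, and *Donson*, a replication fork gene, by 0.38 and 0.31. *Ifnar1*, the next gene upstream, was higher by 0.14 untreated (adjusted p = 0.0195), and by 0.054 treated, which did not pass (adjusted p = 0.324). *Il10rb* was higher by 0.21 and 0.14. Further out, *Ifnar2* was lower by −0.34 and −0.51, *Gcfc1* by −0.57 and −0.55, and *Cryzl1* by −0.63 and −0.91. Genes on either side of *Ifngr2* thus differed between genotypes in both directions. With IFNγ, 1 of the 12 neighbors, *RP23-190G10.4*, was called in NTC cells (0.85, adjusted p = 0.000342 in limma) and 0 in DKO cells. Between genotypes it was higher in DKO cells by 0.40 untreated and lower by −0.68 treated. Its span overlaps those of the neighbors *Ifnar2* and *Il10rb* on the same strand, and how reads were divided among them was not tested.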
